A study of Mus musculus with 3 samples.

Results

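The assembled isoforms of known genes were the transcripts that the program StringTie built from the sequencing reads and placed at a locus whose RefSeq transcripts carried exactly 1 gene symbol. There were 8207 of them among 47490 transcripts quantified in all, at 4555 of 16081 loci with 1 symbol. The same 4555 loci held 7453 RefSeq transcripts. Of the 12520 transcripts that StringTie assembled, 3130 lay at loci with no symbol and 1183 at loci with 2 or more, and these were left aside. The assembled share of a gene is the part of its summed FPKM (fragments per kilobase of transcript, scaled to the mapped fragments of the library) that falls on assembled transcripts, in percent. It was compared at the 3338 genes with a summed FPKM of at least 5 in all 3 libraries, which held 6565 of the assembled transcripts. Just inside that limit were Csnk1g3, with a lowest gene FPKM of 5.01, and Mrpl20, with 5.01, and just outside were Dopey2, with 5.00, and Fam13b, also with 5.00.

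The RNA came from cancer stem cell spheres (CSCsp) of 4T1, a mouse triple negative breast cancer line of Balb c/J origin, grown for 7 days in ultralow attachment plates and kept on a 40 µm strainer. N are CSCsp without co-culture. P are CSCsp co-cultured for 2 days with splenocytes primed by tumor antigen, from female Balb/c mice that received 4T1 cells at an age of 8 weeks and carried the tumors for 28 days. R are CSCsp co-cultured with splenocytes of the same kind whose activation was reinforced with anti-CD3/CD28 beads and IL2. Splenocytes were washed off through the strainer before total RNA was taken with Trizol, and RNA of independent experiments was pooled into 1 library per condition. The conditions therefore have no replicates, no test between them was possible, and every difference given here compares 3 libraries. The deposited name of the first library (labelled N) speaks of saline, in which primed splenocytes without reinforcement were held. That of the second (labelled P) speaks of an untreated sample. For this reason the conditions are written as the library labelled N, P or R, and an exchange of N and P was computed too. That exchange turns the sign of P against N and swaps the values of R against N and R against P.

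A gene can yield several mRNAs. The spliceosome joins a donor site at the start of an intron to an acceptor site at its end, and cells can choose another acceptor, leave an exon out, keep an intron, start at another promoter or end at another polyadenylation site. Such isoforms can encode proteins that differ by a residue or by a domain, or can carry an early stop that marks the mRNA for nonsense-mediated decay. RefSeq lists a curated subset of isoforms. An assembler traces paths through spliced reads, and a path that RefSeq does not hold becomes an assembled transcript, after which the reads of the gene are divided among all its transcripts. Reads on exons that the transcripts share do not name the transcript they came from, and their division rests on the reads that differ.

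The clearest sequence feature of the assembled isoforms lay at acceptors. Of 589 new acceptors within 12 bases of a RefSeq acceptor with the same donor, in 520 of the tested genes, 411 (69.8%) were exactly 3 bases away, in 372 genes. Only 66 were 4 bases away and 8 were 2 bases away. Donors had no such peak. Of 188 new donors within 12 bases, in 178 genes, 14 (7.45%) were 3 bases away and 33 (17.6%) were 4 bases away. The share that was a multiple of 3 was 78.9% for acceptors and 42.0% for donors.

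The 4 pairs of spliced sequences printed next show this arrangement. They come from the genes with 1 RefSeq and 1 assembled transcript that differed only by a 3-base acceptor, and have the highest mean FPKM on the assembled form among those with both junctions in GENCODE M21 (GRCm38). A gene known only by a clone name was passed over. The letters were read from GENCODE 5′ to 3′. The first 15 bases are the end of the upstream exon, and the capitals mark the 3 bases that the longer exon keeps. In Piezo1, a mechanically gated ion channel, the assembled form keeps them, at the intron chr8:122502312-122506028 on the minus strand. In Itgav, the integrin alpha V chain, RefSeq holds the longer form, at chr2:83724920-83736509 on the plus strand, and the assembled form lacks them. The same holds in Ncln, a membrane protein of the endoplasmic reticulum, at chr10:81488359-81488427 on the minus strand, and in Il6ra, the interleukin 6 receptor alpha chain, at chr3:89878896-89885901 on the minus strand.
Piezo1 longer exon, assembled: cgcacccaggagctgCAGgatgatgacgat
Piezo1 shorter exon, RefSeq: cgcacccaggagctggatgatgacgatgac
Itgav longer exon, RefSeq: gcccagcacgtcctcCAGgatgtttctcct
Itgav shorter exon, assembled: gcccagcacgtcctcgatgtttctcctggt
Ncln longer exon, RefSeq: ttcacggagcagatgCAGgtccaggaggag
Ncln shorter exon, assembled: ttcacggagcagatggtccaggaggagcag
Il6ra longer exon, RefSeq: gcactccttggatagCAGagcccaggacca
Il6ra shorter exon, assembled: gcactccttggatagagcccaggaccaccc

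The 3 bases could be read in GENCODE for 355 of the 411 acceptors, and in 355 of 355 they ended in AG, the letters that close nearly every intron. This outcome was largely fixed in advance, because in the shorter form the same 3 bases are the last of the intron. The 3 bases were CAG in 226, AAG in 72, TAG in 41 and GAG in 16. At the 43528 RefSeq introns of the tested genes with a GENCODE sequence, 5.77% were followed by 3 bases ending in AG. The assembled form had the shorter exon at 276 of these acceptors and the longer exon at 135, and 198 of the 411 assembled introns (48.2%) were in GENCODE. For donors 4 bases apart, 14 of the 20 with a sequence had a stretch beginning with GT, against 1.43% at RefSeq introns. That stretch opens the intron of the form with the shorter exon, where GT is usual. The comparisons with RefSeq introns are thus no independent evidence of a motif.

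**Figure D1:**
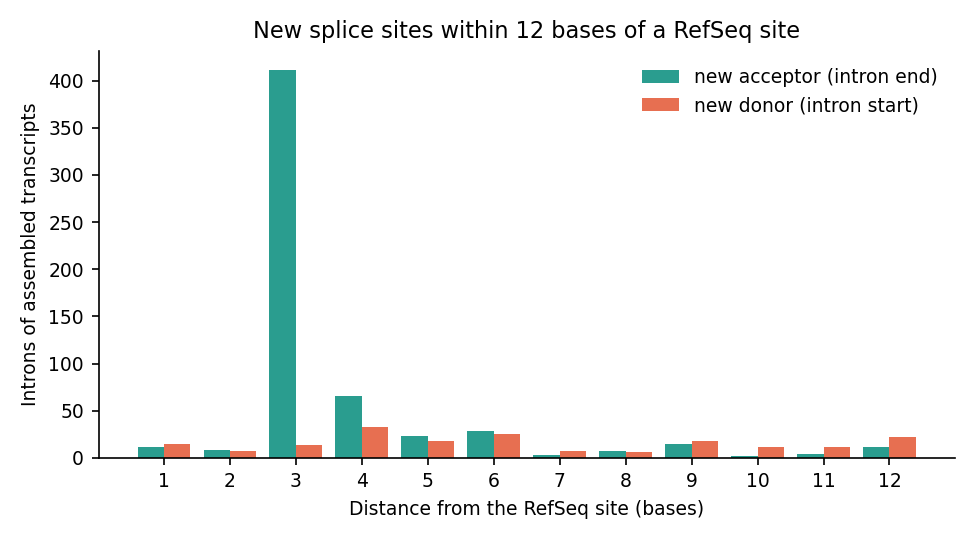
New splice sites of assembled transcripts within 12 bases of a RefSeq site, counted as introns of tested genes (vertical axis) by distance in bases (horizontal axis), for acceptors and donors. Acceptors stand at 411 introns at a distance of 3 bases and at most 66 at any other distance, and donors at most at 33.

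In the 4 genes shown, the assembled form was read in every library. The assembled share of Piezo1 was 67.6% in the library labelled N, 81.3% in P and 82.6% in R. For Itgav it was 63.8%, 58.1% and 63.5%, and for Il6ra 85.1%, 88.5% and 86.2%. Ncln had 40.0%, 41.4% and 52.0%. Itgav and Il6ra thus stayed within 6 points, where a point is 1 percentage point of the gene's FPKM, while Piezo1 was lowest in N and Ncln highest in R. Among further genes with a 3-base acceptor, Grb2, an adaptor of receptor tyrosine kinases, had shares of 22.5%, 21.6% and 21.1%, and Setd2, a histone H3 lysine 36 methyltransferase, 57.6%, 58.0% and 57.2%. Ankrd13a, an endocytic ubiquitin-binding protein, had 62.9%, 37.6% and 30.2%, with the longer exon in the assembled form, so N was high and P and R were low. Mfsd10, a membrane transporter, had 45.6%, 22.6% and 43.2%, with only P low.

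Over all 619 assembled transcripts with a 3-base acceptor, the median part of the gene's FPKM they carried was 25.3% in N, 27.4% in P and 25.4% in R. The cleanest cases were 61 genes with 1 RefSeq and 1 assembled transcript that differed only at such an acceptor. Their median assembled share was 35.2% in N, 32.7% in P and 29.3% in R, and their median range over the 3 libraries was 10.8 points. In 29 of the 61 the range was under 10 points and in 10 it was at least 20 points.

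At the level of whole transcripts, 6410 of the 8207 assembled isoforms (78.1%) held a splice site that RefSeq did not list for the gene. A further 968 (11.8%) joined known sites in a new pairing, 399 (4.86%) combined known introns in a new way, 415 (5.06%) had a stretch of a RefSeq intron chain, and 15 had a single exon. By what differed from RefSeq, 4942 (60.2%) had a shifted splice site, 1636 (19.9%) a first exon that overlapped no RefSeq exon, 1493 (18.2%) a skipped exon, 1398 (17.0%) a new inner exon, 895 (10.9%) a retained intron and 587 (7.15%) a new last exon. An isoform can count under several of these, and 3019 did. The introns of 1337 isoforms (16.3%) equalled those of a GENCODE M21 transcript, which GENCODE types as protein coding for 1046 and as nonsense-mediated decay for 145. These 1337 carried 27.1% of the assembled FPKM in N, 27.5% in P and 26.2% in R. Of 8583 assembled introns outside RefSeq, 4438 (51.7%) were in GENCODE. Most loci held few assembled isoforms: 2680 held 1, 1048 held 2, 410 held 3 and 417 held 4 or more.

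Of all FPKM, the assembled isoforms carried 9.58% in N, 9.99% in P and 9.82% in R. At their own loci they carried 26% in N, 27% in P and 26% in R. Across the 3338 tested genes, the median assembled share was 30.7% in N, 30.4% in P and 27.8% in R. The 95% binomial intervals of the median over genes were 29.0% to 32.3%, 28.8% to 32.3% and 26.2% to 29.7%. These intervals treat the genes of a library as independent draws. Because the conditions have no replicates, the intervals cannot tell whether N, P and R differ. An assembled isoform or several together were the larger part of the gene's FPKM in 1124 genes in N, 1130 in P and 1063 in R, and in 879 genes in all 3 libraries. The share stayed over 90% in 319 genes and under 10% in 418 genes in all 3. It ranged over less than 10 points in 1786 genes (53.5%) and over at least 20 points in 672 genes (20.1%), with a median range of 9.15 points, and in 17 genes it went from under 10% in a library to over 90% in another.

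**Figure D2:**
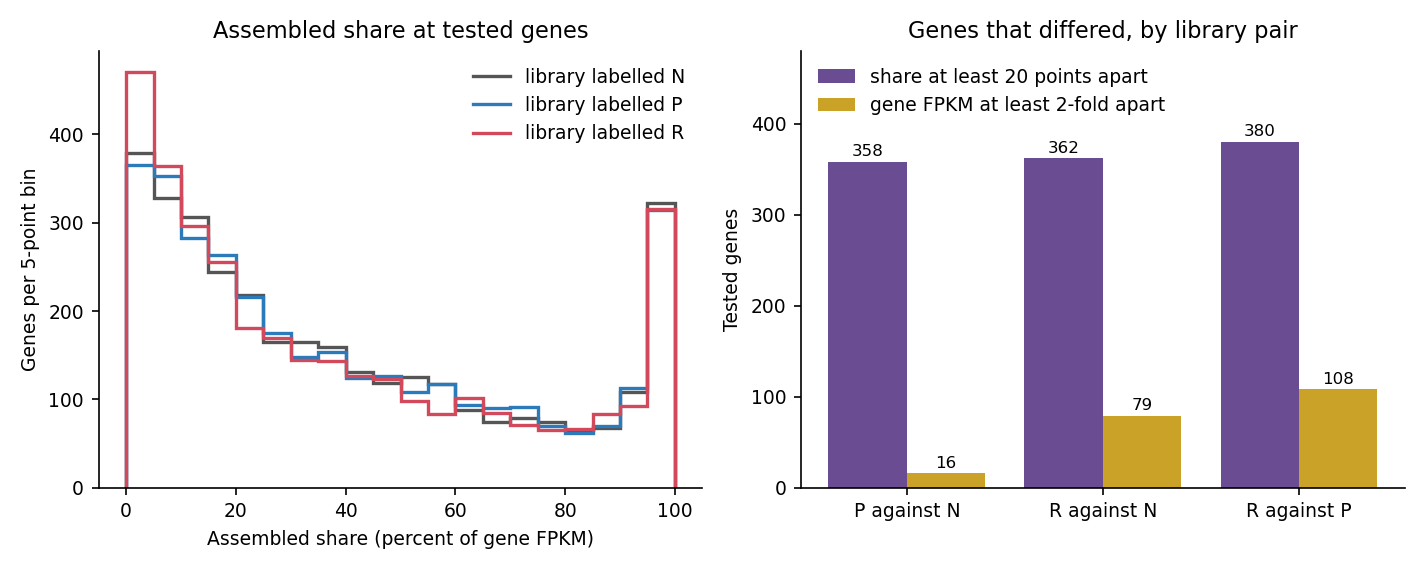
Left, the number of the 3338 tested genes (vertical axis) in each 5-point bin of the assembled share in percent of gene FPKM (horizontal axis), a line per library. Right, the number of tested genes with shares at least 20 points apart (358, 362 and 380) and with gene FPKM at least 2-fold apart (16, 79 and 108) in each pair of libraries.

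The genes read most on assembled isoforms included ribosomal protein genes. For Rps19, a protein of the small ribosomal subunit that is mutated in Diamond-Blackfan anemia, the assembled share was 99.0% in N, 99.1% in P and 99.0% in R at a gene FPKM of 746, 731 and 623. Its leading assembled transcript starts at a first exon that overlaps no RefSeq exon and equals a protein coding GENCODE transcript. For Rps28, of the same subunit, the share was 72.7%, 73.4% and 72.1%. The assembled donor lies 4 bases from the RefSeq donor at the intron chr17:33823117-33823192 on the minus strand and equals a protein coding GENCODE transcript. The joined exons are shown because Rps28 was among the 8 genes with the highest mean assembled FPKM, with the downstream exon in capitals.
Rps28 assembled junction: tcttgcagctggtggGGTTCTGGATATCCA
Rps4x, a small-subunit gene on the X chromosome, had 39.5%, 41.1% and 34.1%, and Ltbp3, a binding protein of latent TGF-beta, 96.4%, 94.4% and 95.8% over 7 assembled isoforms. In Ltbp3 the new inner exon of 141 bases was itself deeply read, with a depth (reads over each base, as the files give it) of 783, 810 and 584 on its most abundant isoform. Reads of ribosomal protein genes, and of Ppia and Gapdh named further on, can also match processed copies elsewhere in the genome, and the counting could divide them, so their values are less certain than those of other genes.

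Some assembled introns lay inside a RefSeq exon. There were 491 of them in 342 tested genes, on 592 assembled isoforms. Their median length was 86 bases, the shortest was 20 bases, and 197 (40.1%) were under 60 bases, against 0.0160% of the RefSeq introns of the tested genes. GENCODE held 78 (15.9%). Of the 342 genes, 91 (26.6%) had an assembled share that ranged over at least 20 points, against 581 genes (19.4%) of those without such an intron.

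The share was lower in more highly read genes. In genes with a mean FPKM from 5 to 10 (815 genes) the median share in N was 48.2%, from 10 to 20 (1106 genes) 35.4%, from 20 to 50 (938 genes) 22.9%, from 50 to 100 (295 genes) 11.7%, and in the 184 genes with 100 or more 7.19%. The part of genes with R at least 20 points from N went with it, from 15.3% in the lowest group to 12.3%, 7.78%, 7.46% and 3.26% in the highest. P against N had 15% in the lowest group and 5.98% in the highest.

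Differences of at least 20 points were about as frequent in each pair of libraries. P was higher than N by that much in 187 genes (5.6% of the 3338 tested) and lower in 171 (5.12%). R was higher than N in 157 (4.7%) and lower in 205 (6.14%). R was higher than P in 162 (4.85%) and lower in 218 (6.53%). The 95% counting intervals given with some shares are exact Clopper-Pearson intervals on the fragments allotted to assembled and RefSeq transcripts. They cover counting error only and take the allotment of each fragment as known. The median absolute difference between shares was 4.66 points for P against N, 5.29 for R against N and 5.17 for R against P, and the median signed difference was 0, -0.83 and -0.90 points.

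The gene totals behaved differently. Gene FPKM was at least 2-fold apart between P and N in 16 of the 3338 genes, between R and N in 79 and between R and P in 108. Over all 6663 loci with 1 symbol that passed the same FPKM limit the parts were 0.33%, 2.07% and 2.85%. Of the genes with a share at least 20 points apart, 356 of 358 for P against N, 350 of 362 for R against N and 371 of 380 for R against P were under 2-fold apart in gene FPKM, while 0.479%, 2.37% and 3.24% of all tested genes were at least 2-fold apart, so the genes with a shifted share stood near the background. When genes at least 20 points from both other libraries were counted, N stood apart in 131 genes (3.92%), P in 152 (4.55%) and R in 145 (4.34%), while gene FPKM was at least 2-fold from both others in 0 genes for N, 11 for P and 71 for R. R thus had more such genes than N and P by gene totals, and about as many by assembled shares.

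The assembled isoforms were set beside RefSeq isoforms. The largest change of any single transcript's share within a gene was at least 20 points in 17.6% of the tested genes for P against N, 19.1% for R against N and 19.1% for R against P. In 930 genes with 2 or more RefSeq transcripts and none assembled it was 51 genes (5.48%), 61 (6.56%) and 50 (5.38%). Among transcripts of the tested genes that reached FPKM 5 in a library, 392 of 2332 assembled isoforms (16.8%) were under 10% of their highest FPKM in another library, against 101 of 2900 RefSeq transcripts (3.48%). Within 2-fold over all 3 libraries were 1241 assembled isoforms (53.2%) and 2402 RefSeq transcripts (82.8%). Assembled isoforms were built from the reads of these same libraries, so one could enter through a single library in which it was high. RefSeq transcripts entered by annotation. These contrasts are therefore partly set by how the transcripts were chosen.

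This coming and going differed by structure. It was seen in 83 of 232 isoforms with an intron inside a RefSeq exon (35.8%), in 38 of 123 with a new last exon (30.9%) and in 114 of 438 with a new first exon (26%). Isoforms with a new inner exon had 17.1%, with a skipped exon 11.1%, with only an acceptor 3 bases away 6.5% and with a retained intron 5.31%. Isoforms whose introns equal a GENCODE transcript had 18 of 504 (3.57%), close to the RefSeq value, and those with every intron in RefSeq 8 of 291 (2.75%).

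**Figure D3:**
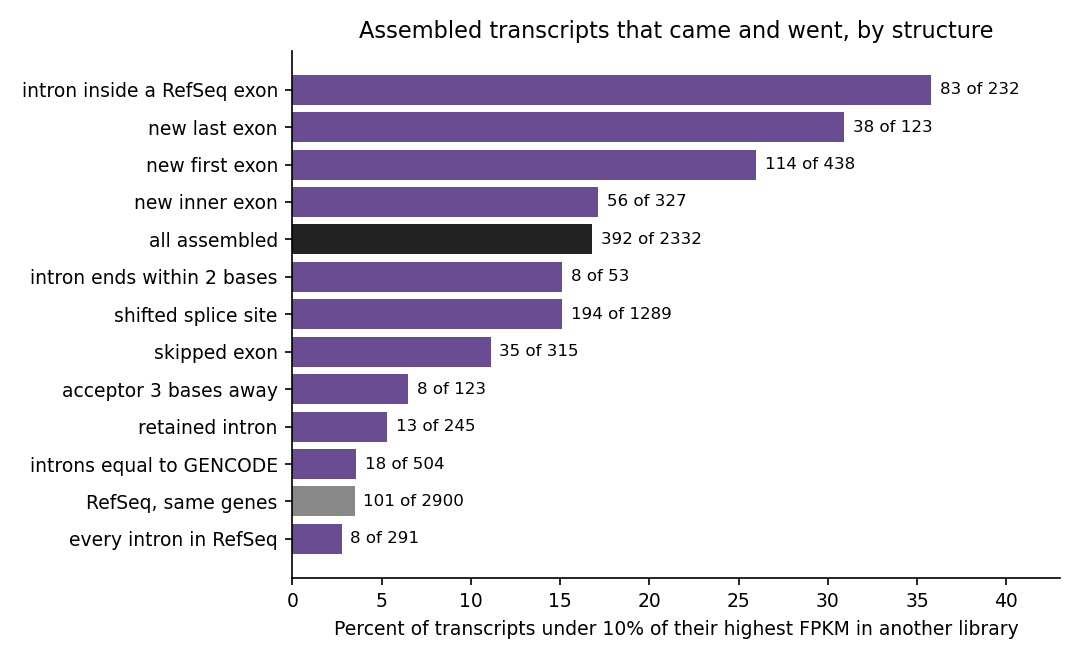
Percent of transcripts (horizontal axis) with an FPKM of at least 5 in a library and under 10% of their highest FPKM in another, by structure (vertical axis), with the counts beside each bar; a transcript can stand in several bars. The bars run from 2.75% for isoforms with every intron in RefSeq to 35.8% for those with an intron inside a RefSeq exon.

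R stood above both other libraries in 76 of its 145 genes and below both in 69. In Osgep, the catalytic subunit of the KEOPS complex that modifies tRNA, the assembled share was 0.194% in N, 0% in P and 96.1% in R (counting interval 93.5% to 97.8%). The assembled acceptor lies 28 bases from the RefSeq acceptor, at the intron chr14:50919820-50919929 on the minus strand, and GENCODE lists that intron. Its junction is printed because Osgep had the largest difference of R from both others among the named genes, with the downstream exon in capitals.
Osgep assembled junction: ttgctttcaccaaagGATTCTAACCACATT
Gene FPKM of Osgep was 8.31 in N, 7.51 in P and 11.5 in R, so the gene was read in all 3 libraries while its RefSeq transcript had 8.29, 7.51 and 0.453. In Chchd5, a mitochondrial protein of the twin CX9C kind, the share was 1.86%, 3.44% and 92.9%, and in Runx1, a transcription factor of blood and epithelia, 0%, 0% and 72.9%. Both end in a new last exon, reached through an intron outside GENCODE. The own exon of Chchd5 held 1, 2 and 6 fragments and that of Runx1 0, 0 and 1. Gmfb, a regulator of actin branches, had 33.8%, 19.7% and 95.7%, and St3gal2, a sialyltransferase, 0.642%, 0.0742% and 62.2%. Own exons of St3gal2 held 1, 1 and 1 fragments.

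Further genes in which R was high were Aldh3a1, an aldehyde dehydrogenase, with 0.364%, 15.7% and 77.1%, and Rnaseh2a, the catalytic subunit of RNase H2, with 34.2%, 36.8% and 97.9%. The leading Rnaseh2a isoform equals a protein coding GENCODE transcript. The own exons of Rnaseh2a held 44, 52 and 57 fragments, or 11.1%, 12.1% and 10.9% of the gene's aligned bases, and did not follow the share. Parva, a focal adhesion protein, had 4.43%, 2.29% and 65.2%. Own exons held 0, 1 and 0 fragments in Aldh3a1 and 1, 0 and 1 in Parva. Sema3b, a secreted semaphorin, had 15.4%, 15% and 74.4%, through an acceptor 4 bases from that of RefSeq that GENCODE holds. Wdr59, of the GATOR2 complex of mTORC1 signalling, had 36.6%, 0.426% and 94.8%, on isoforms with introns of 44 and 42 bases inside a RefSeq exon.

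Among genes in which R was low, Cdc42ep3, an effector of the GTPase Cdc42, had assembled shares of 97.3% in N, 97.1% in P and 6.10% in R, and Ppp1r10, a nuclear subunit of protein phosphatase 1, had 91.0%, 90.5% and 2.50%. Both isoforms start at a new first exon. Fcho2, an endocytic membrane-bending protein, had 98.3%, 98.4% and 7.71%. Its assembled intron of 312 bases lies 1 base from the RefSeq intron at both ends. Psmb7, a proteasome subunit, had 82.1%, 81.4% and 0%, and Ssr1, of the translocon-associated complex, 67.5%, 67.5% and 0%. Pawr, a pro-apoptotic regulator, had 91.3%, 95.8% and 16.4%, and Atl3, a GTPase that shapes the endoplasmic reticulum, 55.1%, 58.0% and 2.86%, on an isoform with an intron of 26 bases inside a RefSeq exon.

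**Figure D4:**
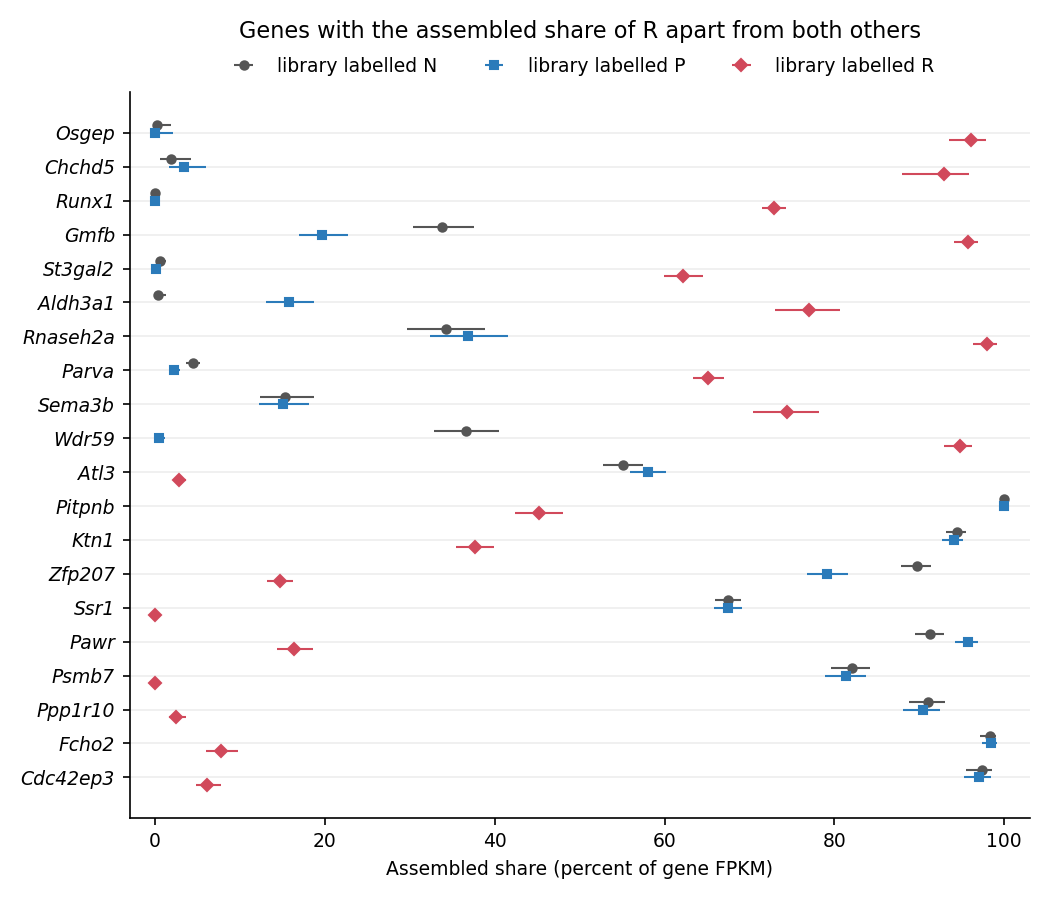
Assembled share in percent of gene FPKM (horizontal axis) of the 10 genes with R furthest above both other libraries and the 10 with R furthest below (vertical axis), a symbol per library with its 95% counting interval. In Osgep the symbols stand at 0.194%, 0% and 96.1%, and in Cdc42ep3 at 97.3%, 97.1% and 6.10%.

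Exons that overlap no RefSeq exon give a reading that shared exons cannot, since no RefSeq transcript of the gene holds them. In Cdc42ep3 the own exon of 1245 bases had a depth of 12.1 in N, 8.89 in P and 8.57 in R, while the depth assigned to the isoform on its longest shared exon was 114, 119 and 5.23. The own exon was thus read at a similar depth in the 3 libraries while the share went from 97.3% to 6.10%. In Ppp1r10 the own exon of the isoform that led in N had a depth of 1.15, 0.996 and 1.36, and the own exons of the gene held 1, 2 and 1 fragments. In Psmb7 the own exons had depths of 0.750 and 3.78 in N, beside 35.6 to 448 on the exons shared with RefSeq, and 0 on all exons in R. In Chchd5 the own last exon had a depth of 0.558, 1.52 and 4.31, and exon 3 had 2.14, 4.64 and 122. These 3 genes and Tra2b are plotted exon by exon and were chosen after their values were seen.

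Tra2b, a splicing regulator that controls its own mRNA, had assembled isoforms with an inner exon that RefSeq does not list. The most abundant of them equals a GENCODE transcript typed as nonsense-mediated decay. On that isoform the own exon of 276 bases had a depth of 63.7 in N, 47.3 in P and 67.6 in R. On exon 1 the depth was 102, 67.3 and 89.0, and on exon 3 it was 88.6, 75.9 and 101. Another assembled isoform holds the same own exon, with a depth of 8.34, 21.5 and 14.7 there. The depth on the first isoform is thus only a part of that exon's reads. The assembled share of Tra2b was 51.6%, 38.3% and 32.4%, and the part of the gene's aligned bases on own exons was 8.17%, 7.75% and 6.86%, in the same order.

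**Figure D5:**
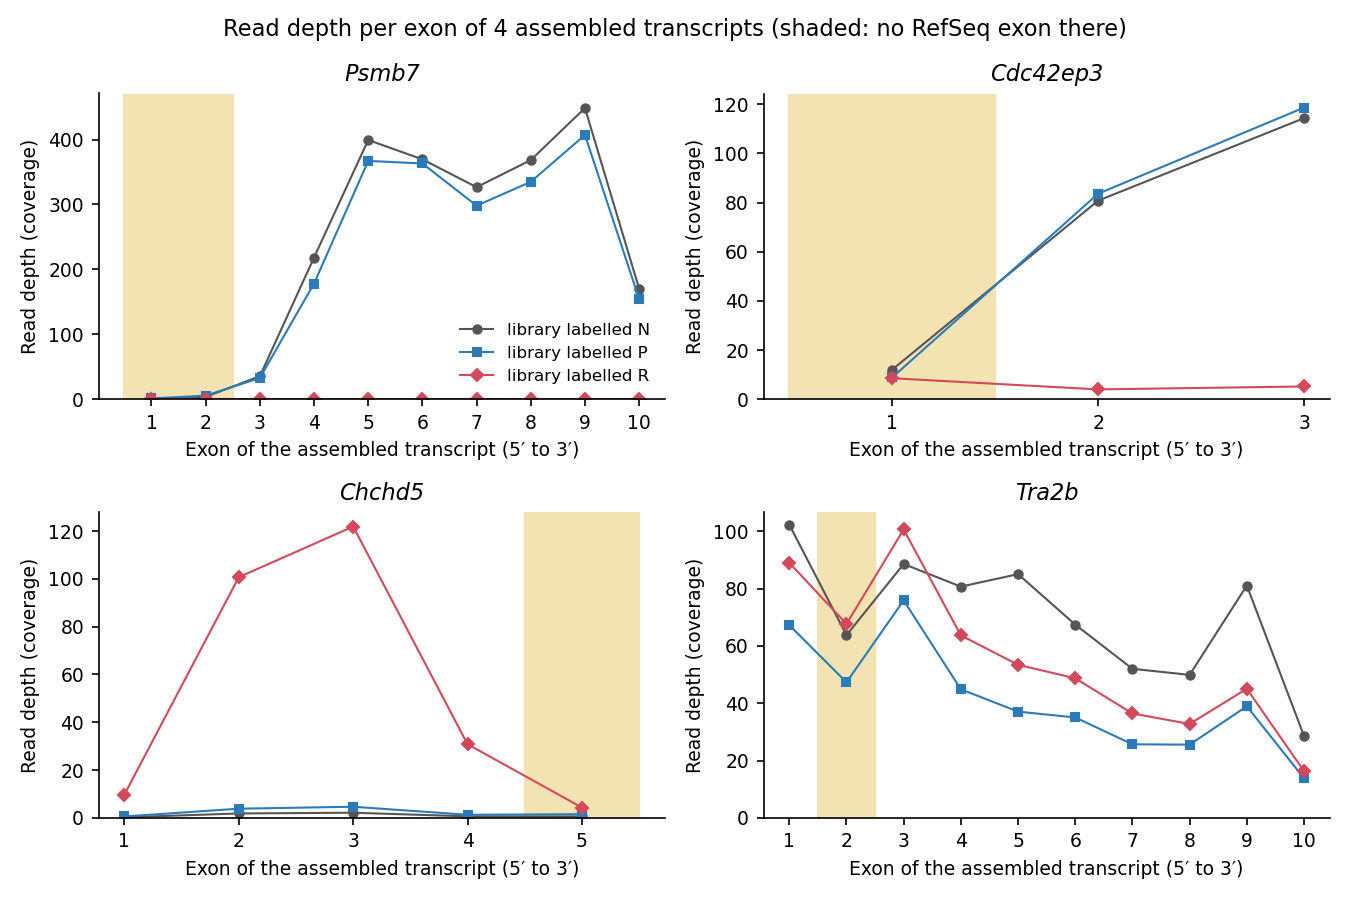
Depth of reads that the files assign to each exon (vertical axis) of an assembled transcript of Psmb7, Cdc42ep3, Chchd5 and Tra2b, with exons numbered 5′ to 3′ (horizontal axis), a line per library; shaded exons overlap no RefSeq exon. The shaded exons of Psmb7 stand at 0.750 and 3.78 in N below 448 on exon 9, while the shaded exon of Tra2b stands at 63.7 in N.

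Own exons were present in 1285 tested genes. At isoforms with an FPKM of at least 5, their median depth was 39% of that on the other exons of the isoform in N, 37.9% in P and 36.4% in R, and it was under 10% in 100 of 487, 115 of 534 and 118 of 508 isoforms. Where R was at least 20 points above N, 59 genes had own-exon reads in both libraries, and the own-exon part of the gene's aligned bases was at least 2-fold higher in R in 8, under 2-fold apart in 46 and at least 2-fold lower in 5, with a median ratio of 0.959. In 11 further genes the own exon was read only in R. Where R was at least 20 points below N, the counts in 88 genes were 3 higher, 55 under 2-fold and 30 lower, with a median ratio of 0.749, and in 7 genes it was read only in N. In the 842 genes with shares within 10 points and own-exon reads in both libraries, the counts were 53 higher, 693 under 2-fold and 96 lower. The median ratio of R to N was 0.917. In 18 further genes the own exon was read only in R and in 17 only in N. The genes read in 1 library only came from 70 genes with own exons where R was higher, 95 where it was lower and 887 within 10 points. For P against N the median ratio was 1.14 where the share was higher (76 genes) and 0.823 where it was lower (70 genes), against 0.994 within 10 points (862 genes). For R against P it was 1.09 where the share was higher (70 genes), 0.822 where it was lower (90 genes) and 0.894 within 10 points (829 genes).

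Genes in which N or P stood apart were of like size. Ppia, cyclophilin A, had an assembled share of 99.8% in N, 0.0902% in P and 0.118% in R at gene FPKM of 574, 613 and 756, on an isoform with a skipped exon. Kif5b, a kinesin heavy chain, had 99.7%, 0% and 0%, on an isoform with an intron of 169 bases inside a RefSeq exon. Vcp, a AAA ATPase that extracts ubiquitinated proteins, had 0.0769%, 95.6% and 1.55%, and its assembled intron ends lie 2 and 1 bases from those of RefSeq. Atp6v1d, a subunit of the vacuolar proton pump, had 0.161%, 92.3% and 0.343%, with a new first exon. Own exons of Atp6v1d held 1, 2 and 2 fragments. Ptprj, a receptor tyrosine phosphatase, had 17.1%, 99.8% and 17.8%, and its own last exon of 1818 bases had a depth of 9.18, 10.9 and 8.71.

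P alone was low in Cir1, Mpst and S100a13. Cir1, a corepressor, had 97.5%, 0% and 100%, on an isoform with a skipped exon. Mpst, an enzyme of hydrogen sulfide metabolism, had 100%, 0.538% and 86.3%, and S100a13, a calcium-binding protein, 93.1%, 0% and 92.5%, through an acceptor 3 bases away. N alone was high in Akt2 and low in Cd44. Akt2, a kinase of insulin signalling, had 50.1%, 4.12% and 1.40%. Its own exon of 409 bases had a depth of 15.4, 9.91 and 4.35, in the order of the share but with a much smaller fall from N to P. Own exons of Akt2 held 21, 14 and 6 fragments, or 0.767%, 0.523% and 0.193% of the gene's aligned bases. Cd44, a hyaluronan receptor whose variable exons mark epithelial states, had 10.3%, 38.5% and 34.7%, mainly on an isoform that skips an exon through an intron in GENCODE, with an FPKM of 0.0856 in N, 12.9 in P and 15.1 in R. A RefSeq form of Cd44 with as many exons had 17.6, 3.57 and 4.30.

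The lists that follow were drawn up with earlier results of these data known, and each is described by the number of its tested genes whose share ranged over at least 20 points, beside 20.1% of all tested genes. SR splicing factors, which bind exons and promote their use, had 4 of 11 (36.4%). Srsf5 had 58.7% in N, 52.3% in P and 28.6% in R, Srsf2 58.9%, 65.8% and 41.2%, and Srsf1 66.5%, 44.0% and 49.6%, so R was lowest in Srsf5 and Srsf2 and highest in none of the 3. Srsf6 was the fourth, with 18.5%, 33.3% and 10.3%. The median R minus N difference of the list was -6.82 points, with 0 genes higher and 1 lower by 20 points, where all tested genes had a median of -0.83. hnRNP proteins, which also bind pre-mRNA, had 1 of 21 (4.76%), namely Hnrnpd with 31.0%, 46.4% and 90.5%. An Hnrnpd isoform with an FPKM of 0.133, 0 and 10.1 uses an intron of 41802 bases outside GENCODE. Own exons of Hnrnpd held 5, 9 and 4 fragments, or 0.144%, 0.274% and 0.138% of the gene's aligned bases, and did not follow the share. Hnrnpll, a regulator of splicing in lymphocytes, stayed under that limit with 25.6%, 21.2% and 8.80%, on an isoform that equals a GENCODE transcript typed as nonsense-mediated decay.

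Genes of the spliceosome core had 1 of 22 (4.55%), Rbm25 with 42.5%, 56.3% and 66.1%. Own exons of Rbm25 held 23, 32 and 22 fragments, or 1.16%, 1.58% and 1.07% of the gene's aligned bases, lowest in R unlike the share. Tissue splicing regulators had 3 of 10 (30%), among them Khdrbs1 (Sam68) with 25.1%, 26.2% and 56.0% and Tial1 with 94.8%, 61.7% and 99.7%. The own-exon part of Tial1 was 3.30%, 3.73% and 2.12% (24, 28 and 15 fragments), in the reverse order of its share. That of Khdrbs1 was 0.0822%, 0.110% and 0.134%, in the order of its share but on 2, 2 and 3 fragments. Genes of mRNA 3′ end processing had 3 of 10 (30%). These were Cpsf6 with 72.4%, 53.9% and 35.2%, Pabpn1 with 35.6%, 71.1% and 26.3%, and Cstf1 with 67.6%, 82.0% and 40.0%. By share R was the lowest library in each, but own exons did not follow it in Cpsf6 and Cstf1. Their part of the gene's aligned bases was 1.52%, 1.46% and 1.54% in Cpsf6 (24, 23 and 24 fragments). In Cstf1 it was 1.34%, 1.69% and 1.99% (7, 8 and 11 fragments). Nonsense-mediated decay genes had 1 of 7 (14.3%) and genes known to be spliced by epithelial state 1 of 12 (8.33%), which was Cd44. Esrp1, the epithelial splicing regulator itself, had 77.2%, 78.4% and 79.9%.

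Arginine metabolism, the pathway that the study followed in these spheres, had 10 tested genes, of which 2 (20%) ranged over at least 20 points. Odc1, the rate-limiting enzyme of polyamine synthesis, had assembled shares of 20.2% in N, 19.5% in P and 40.9% in R, through an acceptor 3 bases away, at gene FPKM of 44.5, 38.8 and 62.1. Jmjd6, an oxygenase reported to act on arginine residues, had 79.1%, 63.1% and 51.9%, mainly on an isoform with a retained intron. Its gene FPKM was 40.9, 39.8 and 22. Sms, spermine synthase, had 100% in each library, so its FPKM was assigned to assembled isoforms alone.

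The other arginine genes moved less. Asl, the lyase of the urea cycle, had 21.5%, 16.9% and 33.6% on an isoform that equals a protein coding GENCODE transcript. Azin2, which raises ornithine decarboxylase activity, had 22.4%, 16.6% and 17.9% at gene FPKM of 112, 41.9 and 100.2, so its total varied over 2-fold while its share stayed within 6 points. The peptidylarginine deiminases Padi4 and Padi2, which turn arginine into citrulline in proteins, had 21.1%, 28.7% and 25% for Padi4 and 3.59%, 8.46% and 12% for Padi2. Slc7a1, the main arginine transporter of many cells, had 19.2%, 8.38% and 1.52% on an isoform of 2 exons that ends in an own exon of 1096 bases, with a depth of 10.7, 4.19 and 1.03, so the share and the own exon had the same order. The methyltransferases Carm1 and Prmt5 had 13.7%, 0% and 0.0131% and 7.47%, 6.56% and 3.87%.

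Some genes had a higher total in R. Of the tested genes, 57 had a gene FPKM at least 2-fold higher in R than in both other libraries, and in 2 of the 57 the assembled share of R was at least 20 points from both others, beside 4.34% of all tested genes, which is near the background. Samhd1, a dNTP hydrolase, was among them, with shares of 0% in N, 3.12% in P and 26.6% in R at gene FPKM of 14.3, 13.1 and 101. The median share of the 57 was 31.1% in N, 33.3% in P and 27.0% in R. Irgm1, an interferon-inducible GTPase, had a gene FPKM of 23.3, 16.3 and 187 and shares of 68.7%, 71.1% and 63.8%, and Irf7, which drives interferon genes, 48.5, 38.0 and 221 with shares of 13.5%, 13.3% and 11.7%. The list of interferon and antigen presentation genes as a whole had 3 of 15 (20%) with a range of at least 20 points, among them Parp9 with 67.6%, 47.8% and 84.7% and Ifit1 with 16.9%, 89.2% and 88.1%. The assembled Ifit1 isoforms have introns of 26, 42 and 27 bases inside a RefSeq exon, all outside GENCODE.

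Leukocyte markers did not move as a group. The summed RefSeq FPKM of 13 leukocyte markers was 110 in N, 47.1 in P and 537 in R, most of it Cd74 with 68.0, 46.1 and 466, and H2-Aa, of MHC class II, had 1.03, 0 and 50.9. Of the myeloid markers, Lyz2 (28.9, 0.313 and 6.51), S100a8 (8.20, 0.546 and 5.58), S100a9 (1.84, 0 and 0) and Itgam (0.876, 0 and 0.375) were highest in N. Mpeg1, a macrophage marker, had 0.697, 0 and 6.59 and was highest in R. An FPKM of 1 or more was reached by 5 of the 13 in N, 1 in P and 5 in R. Markers that define T cells were at or near 0 in every library, Cd3e at 0, 0 and 0.0771 and Cd8a at 0, 0 and 0.0521. The 6 epithelial markers summed to 2178, 1918 and 1612, each at 1 FPKM or more in each library. Of 26 genes listed as leukocyte markers 2 had assembled isoforms and 0 reached the FPKM limit. In pooled RNA, fewer cells of a type and less RNA per cell cannot be told apart, and the part of leukocyte RNA in the shares of R was not tested.

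Cytosolic ribosomal protein genes had 4 of 28 (14.3%) over 20 points, with a median share of 6.66% in N, 10.5% in P and 10.6% in R. Rpl35a had 0%, 0% and 47.3%, through a donor 12 bases away. Also among them were Rps15a with 0.0638%, 39.7% and 10.7% and Rpl22l1 with 71.2%, 29.0% and 69.3%. Glycolysis and hypoxia genes had 3 of 14 (21.4%), Gapdh with 100%, 40.5% and 100%, Pfkm with 0%, 13.7% and 27.8% and Hif1a, the oxygen-regulated transcription factor, with 66.2%, 47.9% and 77.4%. Gpi1, an enzyme of glycolysis, stayed just under the limit with 23.5%, 14.3% and 4.78%. Signalling kinases and their partners had 3 of 10 (30%), Akt2 and, with R highest, Traf2 with 29.6%, 21.7% and 62.0% and Tsc1 with 0.588%, 3.42% and 33.2%. The own-exon part of Traf2 was 3.662%, 3.805% and 3.446% (33, 32 and 37 fragments), lowest in R unlike the share. Own exons of Tsc1 held 1, 3 and 0 fragments and did not follow its share. Epithelial and keratin genes had 1 of 9 (11.1%), Krt7 with 9.95%, 10.9% and 31.5%. Its own-exon part was 0.302%, 0.297% and 0.119%, lowest in R.

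Some exchanges were between nearly identical transcripts. On assembled isoforms whose introns ended within 2 bases of the RefSeq introns, 8 of 53 with an FPKM of at least 5 were under 10% of their highest value in another library (15.1%), near the 16.8% of all assembled isoforms, and 39 (73.6%) were within 2-fold. The 8 were in Vcp, Gars, Vdac1, Fcho2, Cxcl10, Txnrd1, Lamb1 and Gmfb. For Gars, the glycyl-tRNA synthetase, the isoform had an FPKM of 25.7 in N, 0 in P and 0 in R, and for Vdac1, a channel of the outer mitochondrial membrane, 22.2, 0.150 and 0.0310. In Txnrd1, a thioredoxin reductase, it had 0.000203, 0.000358 and 9.52. These genes were picked for that pattern after their values were seen. Each of the 3 libraries was thus the high one in at least 1 of these genes.

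The structure of the genes with R apart from both others is given beside that of all tested genes. Of the 145, 26.9% had an isoform with a new first exon and 11.0% with a new last exon, against 19.6% and 8.54% of all 3338. A GENCODE-equal isoform was present in 27.6% and 26.5%. Their median gene FPKM was 14.5 against 17.1, and 40% against 53.1% had a single assembled isoform. For the 131 genes with N apart, 24.4% had a new first exon, and for the 152 with P apart, 25%.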

How the data were processed

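The authors pooled RNA of independent experiments into 1 library per condition and deposited a transcript annotation with coverage, FPKM and TPM for each. Per the labels, reads were aligned with HISAT2 2.2.0 and assembled, merged and quantified with StringTie 2.1.3 (the file headers give 2.1.5). The labels name mm9, but 99.3% of 157420 RefSeq introns at loci with 1 symbol equalled GENCODE M21 introns, so GRCm38 was used. Read length was not given in the sources used here. Fragments are coverage times length over an assumed 300 bases per read pair, which gave 17894139 fragments in N, 17887652 in P and 19178982 in R. Shares and exact 95% binomial counting intervals were computed from the deposited FPKM and coverage values, with no model across genes. Fold changes used FPKM plus 0.1.

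The members and lists were chosen with earlier results of these data known. Named genes had at least 100 fragments in each library and no clone name. They were the 8 largest differences in each direction per comparison, the 10 genes in each direction with R furthest from both others, the 8 with the highest assembled FPKM, the arginine genes, up to 4 genes for each of the other lists (14 lists in all) and the neighbours of the FPKM limit. Examples of 3-base acceptors, introns inside exons, near copies, exon depth and genes higher in R, and further list members, were chosen after their values were seen. Alternatives changed the FPKM limit, the measure, the isoform class, the threshold, the pseudocount and the N and P labels. No sequence pair from chromosome 18 was shown. The calculations ran in Python 3.11.15 with SciPy 1.17.1, pandas 2.3.3 and NumPy 2.4.6, plots were drawn with Matplotlib 3.10.9, and the code was tested on simulated data. Results at a few genes are not reported here.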

Additional observations from a re-analysis of the deposited data

How the results depend on the processing

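Counts of genes at least 20 points apart are given for P against N, R against N and R against P, and median shares for N, P and R. With an FPKM limit of 1 they were 660, 648 and 680 of 4431 genes with medians of 38.5%, 38.6% and 36.4%, and with a limit of 20 they were 98, 81 and 100 of 1268 with 16.6%, 17.4% and 14.7%. At 30 points the counts were 160, 164 and 161 of 3338. With shares of aligned bases the medians were 33.2%, 33.9% and 31.0%, and with isoforms whose introns all lie in 1 RefSeq transcript counted as RefSeq they were 25.6%, 25.2% and 23.5%. Of the settings chosen after seeing the data, keeping only isoforms equal to a GENCODE transcript gave 80, 74 and 80 of 2465 with medians of 0%, 0% and 0%, and genes with 1 RefSeq and 1 assembled transcript gave 114, 115 and 117 of 1243 with 18.6%, 18.5% and 16.5%. In the GENCODE setting a gene without such an isoform has a share of 0 by the choice itself. Only 26.5% of the 3338 tested genes had one, so the medians of 0% and the lower counts follow largely from the setting. The 114 are 9.17% of their genes, beside 10.7% for the 358 of 3338. Gene FPKM was at least 2-fold apart in 43 of 4506, 163 of 4526 and 222 of 4537 genes when an FPKM of 1 in either library was enough. Pseudocounts of 0.01 and 1, a minimum of 500 fragments, single-exon transcripts left out and N and P exchanged kept each count within 1.5 times. Of 315 differences of named genes, 2 moved with aligned bases and 7 with the RefSeq class, and none changed sign. No paired analysis was possible because each condition had 1 library, and for the same reason no replicate could be left out. Depth limits the counting error only. The division of reads among isoforms that share exons has an error that these files do not give, and the counting intervals leave it out.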
